A study of Mus musculus with 20 samples.

Results

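The mice described here received HDL carrying a locked nucleic acid (LNA) inhibitor of miR-92a-3p, of miR-489-3p or of both, and they were set against mice that received HDL alone. The comparison asks how RNA lysed from the inner surface of the aorta differed with LNA cargo, whichever microRNA it was directed at. It rests on 16 of the 20 libraries of the study, 12 with an inhibitor and 4 with HDL alone, chosen by the treatment in the labels and not by any measured value. All animals were female Apoe-/- mice (strain B6.129P2-Apoetm1Unc/J) on regular chow that had undergone 5/6 nephrectomy, a removal of most kidney tissue, at 9 weeks of age. Each mouse had 1 retro-orbital injection 7 weeks after surgery and was killed 1 week later.

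The LNA92a group (4 mice) received 4 mg of HDL with 20 mg/kg of the miR-92a-3p inhibitor, and the LNA489 group (4 mice) received 4 mg of HDL with 20 mg/kg of the miR-489-3p inhibitor. The dual group (4 mice) received 4 mg of HDL with 20 mg/kg of each, 40 mg/kg of LNA in total. The HDL group (4 mice) received 4 mg of HDL with no LNA, and a saline group (4 mice) stands beside them. A library's name joins its group and the number of its mouse. No mouse number occurs a second time, so each library stands for its own animal. The labels name no batch, and the 20 libraries analysed here include no LNA without a target, so a response to LNA as a chemical and the loss of either microRNA cannot be told apart. RNA came from the inner surface of the aorta lysed in place, and no cell sort is described. In such bulk RNA, fewer cells of a type and less RNA per cell cannot be told apart.

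LNA inhibitors are short, nuclease-resistant oligonucleotides that pair with a mature microRNA and keep it from its targets. Oligonucleotides enter cells through scavenger receptors and endocytosis, and they can be detected by endosomal Toll-like receptors, by cytosolic sensors and by the interferon genes these switch on. HDL binds and carries small RNAs in plasma. In endothelium, miR-92a is known for repressing the flow-induced factors Klf2 and Klf4 and the integrin subunit Itga5, while miR-489 is known in mouse muscle stem cells for repressing Dek, a chromatin protein.

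The mature microRNAs that the inhibitors are named for are printed below from RefSeq (GRCm38.p6), 5′ to 3′, with the seed (bases 2 to 8) in capitals, because the seed sets which transcripts each inhibitor could release. The genes of miR-92a-3p lie at chr14:115044476-115044496 on the plus strand (Mir92-1) and at chrX:52741854-52741874 on the minus strand (Mir92-2). The gene of miR-489-3p lies at chr6:3721922-3721944 on the minus strand. The sequences of the LNA oligonucleotides themselves were not used here.
miR-92a-3p: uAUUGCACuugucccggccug
miR-489-3p: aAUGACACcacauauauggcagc
The seeds hold the same base at 5 of 7 positions. The miR-92a seed is shared by miR-25-3p, miR-32-5p, miR-363-3p, miR-367-3p and miR-92b-3p, and the miR-489 seed by miR-425-5p, whose mature sequences differ beyond it.
miR-25-3p: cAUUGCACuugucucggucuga
miR-92b-3p: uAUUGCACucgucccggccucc
miR-425-5p: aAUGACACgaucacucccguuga

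Some reported target genes carry the complement of a seed in the 3′ untranslated region (UTR). It is written here as DNA on the transcript strand with the 7 paired bases in capitals (GRCm38, GENCODE transcripts). Matches are shown for Itga5, Klf2, Klf4 and Dek, whose levels are given further on. A miR-92a match in Zeb2 and another miR-489 match in Dek are not printed. The Itga5 match lies at chr15:103344315-103344337 (minus strand), the Klf2 match at chr8:72321118-72321140 (plus) and the Klf4 match at chr4:55527367-55527389 (minus). The printed Dek match lies at chr13:47085357-47085379 (minus).
Itga5, miR-92a seed match: taaactctgttgcaaGTGCAATa
Klf2, miR-92a seed match: aatgttttcaaaatgGTGCAATa
Klf4, miR-92a seed match: actgtggtttcagatGTGCAATa
Dek, miR-489 seed match: tgctttgccctcaaaGTGTCATc

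Depth did not differ beyond the spread between libraries. Assigned reads numbered 11.6 to 21.4 M (mega) per LNA library and 12.4 to 15.9 M per HDL library, means of 15.6 ± 3.44 and 14.0 ± 1.61 M (SD, n = 12 and 4; exact 2-sided permutation test over all splits, p = 0.399). Rn18s-rs5, an 18S ribosomal RNA gene, held 9.89% ± 6.65 of reads with LNA and 7.07% ± 2.71 with HDL (exact permutation p = 0.449), with LNA92a 5, 17 and 18 the highest at 19.1%, 22.4% and 18.2%. HDL 4 and HDL 11 stood apart within the small HDL group. The endothelial adhesion gene Pecam1 had 26.4 FPKM in the lowest LNA library, a median of 217 and 700 in the highest, against 633, 10.8, 120 and 1010 FPKM in HDL 3, 4, 11 and 23. HDL 4 had the lowest Pecam1 level of the 16 libraries and the lowest endothelial list mean (8.34 against 8.42 in LNA92a 5, which had the lower summed FPKM of the list, 101 against 105), and it was rich in fat-cell RNA, with Adipoq at 266 FPKM. HDL 11 was rich in B cell RNA, with the antibody light chain Igkc at 4221 FPKM against 46.7 to 739 with LNA. Values without HDL 4 or HDL 11 stand beside many of the results that depend on them.

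No gene was called different between the 12 LNA libraries and the 4 HDL libraries. The fit was limma on the deposited variance-stabilized log2 values, with 16848 genes tested and Benjamini-Hochberg adjustment, and the smallest adjusted p was 0.812 (0 called, 0%). Unadjusted p-values under 0.05 were reached by 716 genes (4.25% of those tested), 263 higher with LNA (1.56%) and 453 lower (2.69%). Limma's voom on recovered reads called 0 genes with 790 at an unadjusted p under 0.05. With library weights limma called 0 with 4753, its smallest adjusted p being 0.0935. In that fit HDL 4 and HDL 11 had weights of 0.349 and 0.341, and HDL 3 and HDL 23 of 2.004 and 2.645. The median difference over all genes was -0.05 and the middle 90% of genes lay between -0.53 and 0.79. At the median standard error of 0.29, a log2 difference of 0.61 was needed for an unadjusted p of 0.05. A call after adjustment needed a larger one. In simulated data with 200 changed genes, a log2 change of 1 was called in 34.5% of them and a change of 2 in 87%. In these 2 simulations, 4.865% and 4.974% of unchanged genes had an unadjusted p under 0.05 in limma, beside 4.25% of the genes tested. The simulation drew every gene independently, with the same spread in all libraries. It lacks the shifts that many genes share in real libraries such as HDL 4 and HDL 11. Its rates therefore describe the script and may not hold for these data. With log2(FPKM + 0.1) as the scale, all genes together had a median of -0.19 and the split was 159 higher and 515 lower. With log2(FPKM + 1) it was 124 and 635, and with each library centred on its median it was 192 and 690.

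The count of genes at an unadjusted p under 0.05 turned on single libraries of the HDL group. Without HDL 4 it was 3238 (19.2% of genes tested), 1632 higher (9.69%) and 1606 lower (9.53%), without HDL 11 it was 368, and without HDL 23 it was 449. Leaving out HDL 3 gave 502 genes, 145 of them higher, and without HDL 11 and HDL 23 the higher genes numbered 148 and 149 and the lower genes 220 and 300. Among LNA libraries, leaving out dual 21 gave 1158 genes and leaving out LNA489 13 gave 945, 423 of them higher. Without dual 15 the higher genes numbered 173. No gene was called in any of these fits, and the smallest adjusted p without HDL 4 was 0.228. Without HDL 4 and HDL 11 together, a choice made after seeing the data, 1972 genes reached an unadjusted p under 0.05.

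**Figure D1:**
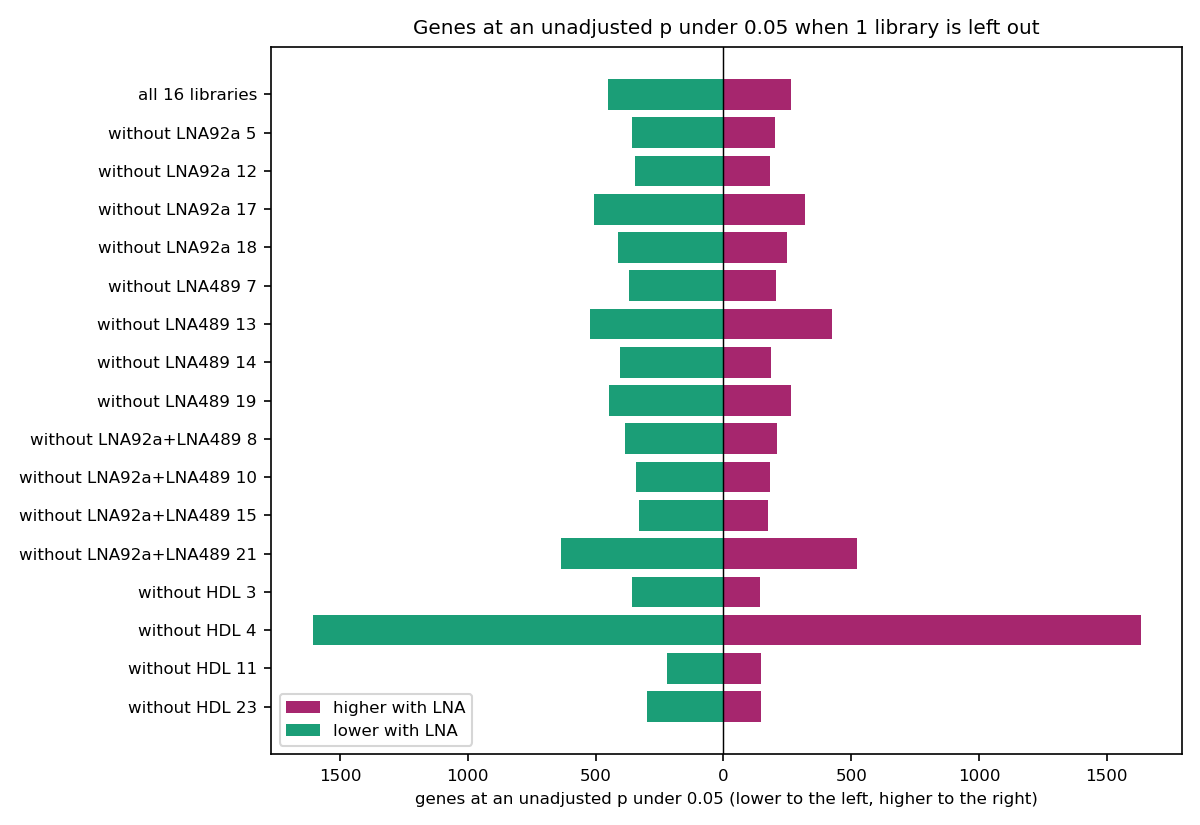
Number of genes at an unadjusted p under 0.05 in limma (x axis, lower with LNA to the left and higher to the right). The fits set any LNA inhibitor against HDL alone, with all 16 of these libraries (top bar) and with each left out in turn. Every fit also held the 4 saline libraries, which entered the shared estimate of the spread. The bar without HDL 4 holds 1632 genes higher and 1606 lower, against 263 and 453 with all libraries.

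The genes named next had the smallest p in each direction and are given as values, since none passed the test. Differences are mean LNA minus mean HDL on the variance-stabilized log2 scale, with the mean of the 3 LNA groups as the LNA value and ± giving the standard error from limma. Levels are in FPKM (fragments per kilobase per M reads), and a gene listed at 0 can be a failed count, since Hnrnpu, Uqcrc1 and Jund, which most cells use, are listed at 0 in most libraries. Reads of genes that overlap another annotated gene are uncertain because the strand used in counting is not known. Besides those marked where they are described, this holds for Actc1, Pln, Casq2, Igkc, Cox5a, Irf9, Lrp1, Colec12, Scarb1, Cdkn1a, Nop56, Tnrc6a, Cnot1, Zeb2, Itga5, Mir17hg, Calcr and Slc2a1.

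On the higher side, Pcp4l1, which encodes a small protein related to the calmodulin regulator Pcp4, had all 12 LNA libraries above all 4 HDL libraries. The Pcp4l1 gene spans chr1:171173262-171196268 (minus strand) in GRCm38. It measured 4.48, 4.99, 2.98 and 13.4 FPKM in LNA92a, 5.63, 2.81, 4.48 and 5.24 in LNA489 and 1.34, 5.46, 1.58 and 1.61 in the dual group, against 1.23, 0.917, 1.16 and 1.21 FPKM with HDL. The difference was 1.20 ± 0.35 (95% interval 0.47 to 1.93), and 1.84, 1.28 and 0.49 for the LNA92a, LNA489 and dual mice. The 4 HDL libraries were close together and 3 of the 4 dual libraries lay just above them. Saline mice had 1.94, 8.29, 1.28 and 2.01 FPKM, so saline overlapped the LNA range, and the LNA difference from saline was 0.44 ± 0.35. LNA92a 18, dual 10 and Saline 2 were the highest libraries of their groups for Pcp4l1 and also for cardiac actin, Actc1. In LNA489 and HDL the highest libraries of these genes differed. The part of muscle tissue in Pcp4l1 was not tested.

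Tbc1d7, a subunit of the TSC complex that restrains the growth kinase mTORC1, was the other gene of at least 1 FPKM with no overlap on the higher side. The Tbc1d7 gene spans chr13:43151740-43171501 (minus strand) in GRCm38. It had 3.15 to 8.72 FPKM with LNA, median 5.46, and 2.12, 3.39, 3.44 and 3.94 FPKM with HDL. Its difference of 0.62 ± 0.21 was 0.64, 0.51 and 0.70 in LNA92a, LNA489 and the dual group. The libraries were separate on the variance-stabilized scale but not in FPKM, where LNA92a 5 lay below 3 HDL libraries. Dnajc12, a co-chaperone of aromatic amino acid hydroxylases, was the third gene with no overlap, higher by 0.71 ± 0.22 at a mean of 0.996 FPKM, and is named although it lies outside the naming rule. In all, 16 of the 16848 genes had no overlap (0.095%), 3 higher (0.0178%) and 13 lower (0.0772%), and without HDL 4 the counts were 135 higher and 216 lower. They were 8 and 27 without HDL 3, 7 and 30 without HDL 11, and 4 and 26 without HDL 23. Without LNA92a 17 they were 5 and 19, and without dual 21 they were 7 and 23. Whether 16 genes with no overlap is more than unchanged genes would give was not tested.

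Genes of heart and skeletal muscle were among those with the smallest p on the higher side. Hrc, which binds calcium in the sarcoplasmic reticulum, had 0.127 to 6.53 FPKM with LNA (median 2.09), against 1.01 and 0.089 FPKM in HDL 3 and HDL 23 and listed at 0 in HDL 4 and HDL 11. Its difference of 1.87 ± 0.53 was made up of 2.66 (LNA92a), 2.15 (LNA489) and 0.81 (dual). Actn2, the alpha-actinin of the Z disc, had 0.636, 3.85 and 24.8 FPKM as the lowest, median and highest LNA values and 0.482, 0.578, 0.567 and 0.846 FPKM with HDL, a difference of 2.16 ± 0.69. LNA489 13 and dual 21 lay inside the HDL range of Actn2 and the other 10 LNA libraries above it. Tnni3, cardiac troponin I, had 1.11, 10.7 and 98.7 FPKM with LNA and 1.18, 0.152, 2.62 and 4.55 FPKM with HDL, a difference of 2.43 ± 0.80. Tnni3 overlaps another gene, Dnaaf3, and without known strand its reads are uncertain. Ldb3, a Z-disc adaptor also called Cypher, was higher by 1.76 ± 0.58, and Actc1, cardiac actin, by 2.95 ± 1.03.

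Muscle genes are also given by inhibitor, and differences between the inhibitors were called for no gene. Actc1 was higher by 4.64 (LNA92a), 3.07 (LNA489) and 1.14 (dual), and Tnni3 by 4.01, 2.08 and 1.21. Saline libraries varied widely as well. Actn2 had 6.55, 12.9, 0.311 and 0.685 FPKM in Saline 1, 2, 9 and 24, and the LNA difference from saline was 0.70 ± 0.69. The 4 HDL libraries were all low for Actn2, which was high in some saline and LNA libraries and low in others. The part of heart or skeletal muscle tissue in the muscle genes was not tested.

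The remaining genes of the higher side had smaller differences. Tfpi, the endothelial inhibitor of the tissue factor pathway of clotting, had 3.26, 4.64 and 7.16 FPKM as the lowest, median and highest LNA values and 3.94, 3.77, 2.29 and 4.23 FPKM with HDL, a difference of 0.57 ± 0.18. It was 0.67, 0.58 and 0.46 in LNA92a, LNA489 and the dual group, and 0.34 without HDL 11, the lowest library. Megf9, a membrane protein with EGF repeats, was higher by 1.01 ± 0.33, and 1.42 without HDL 4. Eef1a2, the muscle and neuron form of translation elongation factor 1 alpha, was higher by 1.41 ± 0.47, with LNA489 14 the highest library at 35.7 FPKM. Cryl1 (lambda-crystallin, a sugar dehydrogenase) was higher by 0.82 ± 0.27, Ccdc32 by 0.55 ± 0.18, and Chn1, the Rac-inactivating protein chimaerin 1, by 1.02 ± 0.32. Cryl1 and Chn1 overlap other genes and are uncertain for that reason.

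On the lower side, Kdm4b, a demethylase of histone H3, had 4.29, 5.32, 5.12 and 5.45 FPKM in LNA92a, 5.56, 6.65, 7.08 and 7.42 in LNA489 and 7.68, 8.56, 5.36 and 9.09 in the dual group, against 11.0, 6.75, 12.3 and 12.3 FPKM with HDL. On the variance-stabilized scale all 12 LNA libraries lay below the lowest HDL library, HDL 4, while in FPKM that library overlapped. The difference was -0.53 ± 0.14 (95% interval -0.82 to -0.25), with -0.57, -0.55 and -0.48 in LNA92a, LNA489 and the dual group and -0.63 without HDL 4. The LNA difference from saline was -0.32. The Kdm4b gene spans chr17:56326062-56402870 (plus strand) in GRCm38.

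Zbtb22, a zinc finger protein with a BTB domain, also had no overlap. The Zbtb22 gene spans chr17:33915904-33919325 (plus strand) in GRCm38. It measured 3.35, 6.04, 4.08 and 4.67 FPKM in LNA92a, 3.80, 6.47, 6.77 and 5.93 in LNA489 and 6.16, 5.91, 6.22 and 7.03 in the dual group, against 9.54, 7.95, 12.0 and 8.11 FPKM with HDL, separate on this scale too. The difference was -0.57 ± 0.15, and -0.56, -0.60 and -0.55 by inhibitor. It overlaps Tapbp, an antigen-loading gene, so its reads are uncertain. Saline libraries had 3.53, 6.59, 8.52 and 8.47 FPKM, reaching into both ranges, while on the variance-stabilized scale all 4 lay below the lowest HDL library.

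Zfp160, a zinc finger gene, had 2.41, 3.77 and 6.20 FPKM as the lowest, median and highest LNA values and 6.41, 5.21, 8.09 and 6.90 FPKM with HDL, a difference of -0.58 ± 0.18 with no overlap on the variance-stabilized scale. Thap7, a zinc finger repressor that recruits histone deacetylases, had 2.52, 3.78 and 5.75 FPKM with LNA and 5.94, 5.05, 9.71 and 7.30 FPKM with HDL, a difference of -0.59 ± 0.19 with no overlap. Both genes varied among saline libraries across the range of both groups. Dhx30, an RNA helicase of mitochondrial ribosome assembly, was lower by 0.39 and Tmem161a, a membrane protein, by 0.61, each with no overlap, and Dhx30 by 0.23 without HDL 11. Dhx30 overlaps another gene and is uncertain.

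**Figure D2:**
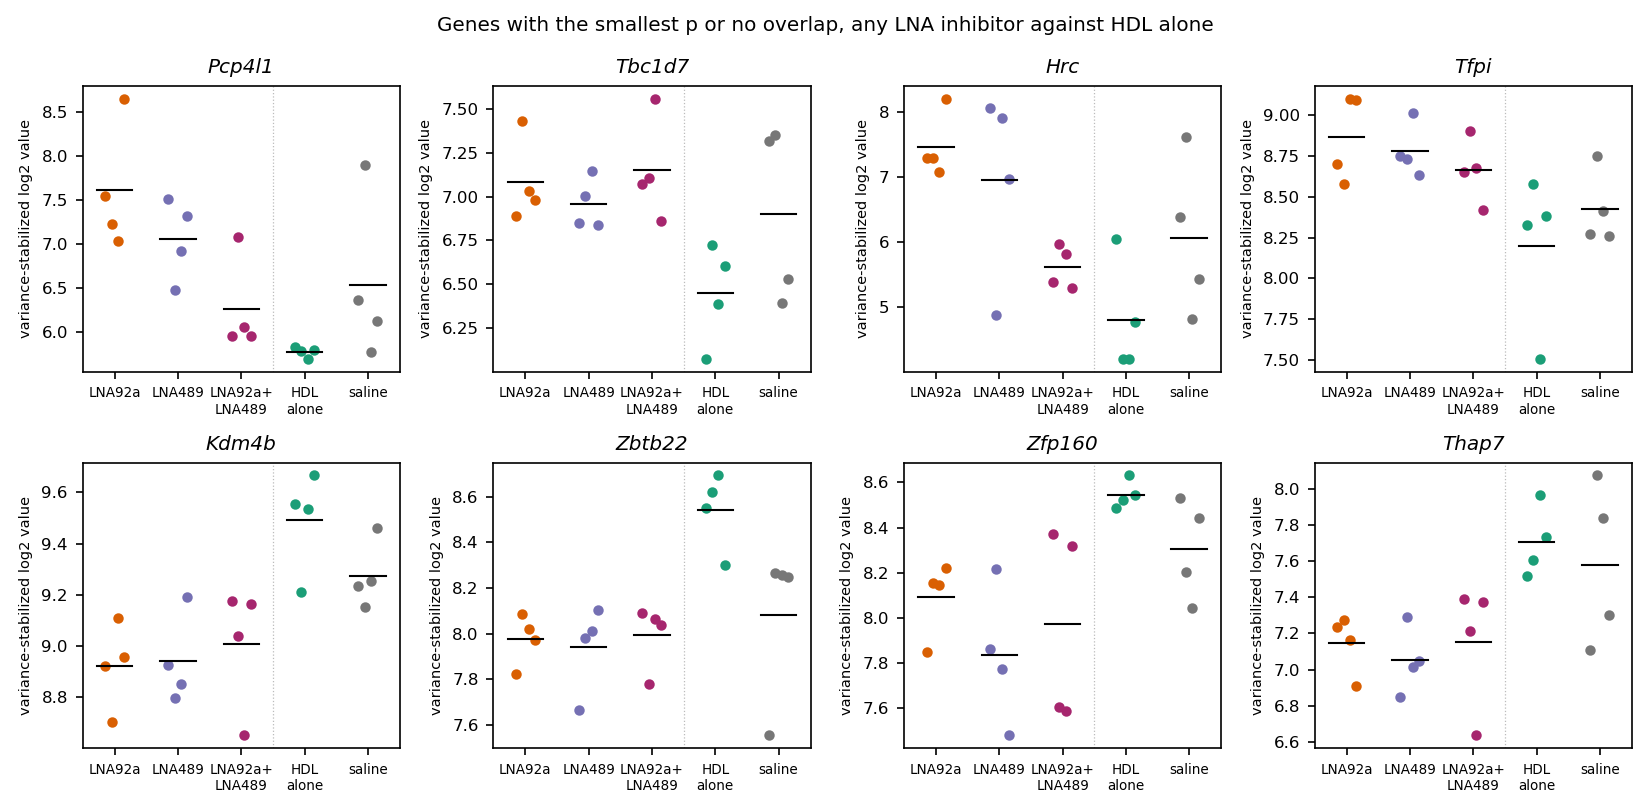
Variance-stabilized log2 values (y axis) of 8 named genes in every library by group, with points for libraries and black bars for group means. All 12 LNA points lie above the 4 HDL points for Pcp4l1 and Tbc1d7 and below them for Kdm4b, Zbtb22, Zfp160 and Thap7, while saline points reach into both ranges for 5 of these 6 genes and for Zbtb22 all lie below the HDL points.

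Rhebl1, a small GTPase of the Rheb kind that activates mTORC1, had the smallest p of all genes. It had 0.399, 1.01 and 2.23 FPKM as the lowest, median and highest LNA values and 2.67, 2.79, 2.09 and 2.99 FPKM with HDL, with LNA489 19 the single LNA library inside the HDL range. The Rhebl1 gene spans chr15:98877778-98894540 (minus strand) in GRCm38. Its difference was -0.78 ± 0.19, with -0.84, -0.59 and -0.91 in LNA92a, LNA489 and the dual group. Saline libraries had 0.619, 1.08, 1.10 and 1.71 FPKM, and the LNA difference from saline was 0.00. The gene overlaps Dhh, a hedgehog ligand, and is uncertain.

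The rest of the lower side held Rflnb, a filamin-binding protein, at -0.72 ± 0.22, and the zinc finger genes Zfp507 at -0.57 ± 0.17 and Zmym3, a member of histone deacetylase complexes, at -0.52 ± 0.16. Wdr37 was at -0.50 ± 0.16 and Dedd2, a nuclear death-effector protein, at -0.66 ± 0.21. Tnfrsf18, the costimulatory receptor GITR of T cells, was at -1.10 ± 0.36 and reached 13.4 FPKM in the B cell-rich HDL 11. It was at -0.82 without that library, and the part of lymphoid RNA in the difference was not tested. Akirin1-ps, a pseudogene at -0.79 ± 0.20, shares sequence with its parent gene and is uncertain, as are Zfp507, Wdr37, Dedd2 and Tnfrsf18, which overlap other genes. Among all 333 tested genes with a Zfp symbol, a group chosen after seeing these values, 239 were lower and 94 higher, with a median of -0.13 beside -0.05 for all genes. The lower genes were 71.8% of the Zfp genes, beside 56.0% of all genes. At an unadjusted p under 0.05, 16 were lower (4.80%, beside 2.69% of all genes) and 2 higher (0.601%, beside 1.56%). Without HDL 4, 52 of the 333 reached it (15.6%), beside 19.2% of all genes.

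Lists of genes that mark cell types are described by counts and medians. Of all genes tested, 1.56% were higher and 2.69% lower at an unadjusted p under 0.05 in limma, and 9.69% and 9.53% without HDL 4. These shares stand beside the counts of every list described from here on. Of 15 tested genes of striated and cardiac muscle, 14 were higher with LNA, 8 of them at an unadjusted p under 0.05 (5 without HDL 4), with a median difference of 1.77 beside -0.05 for all genes. The list mean ran over 5.58, 7.86 and 10.1 (lowest, median and highest) in LNA libraries and from 5.88 to 6.86 with HDL, and the summed level over 8.60, 177 and 953 FPKM with LNA and 12.4 to 56.0 FPKM with HDL. By inhibitor, the median came to 2.66 (LNA92a), 1.72 (LNA489) and 0.75 (dual), and to 1.67 without HDL 4. The 8 genes were Myh6, Tnnt2, Tnni3, Actc1, Myl7, Hrc, Ankrd1 and Mybpc3, most of them sarcomere proteins of the heart. Nppb, the natriuretic peptide of stretched heart muscle, was the member left out by the filter on low values and is listed at 0 in 15 of the 20 libraries.

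Fat-cell genes were higher in every one of the 14 members tested, none at an unadjusted p under 0.05. The median difference was 1.52, and 2.63 without HDL 4, where 11 of the 14 were higher at an unadjusted p under 0.05, beside 9.69% of all genes in that fit. Fabp4, the fatty acid chaperone of adipocytes, had 26.2, 254 and 439 FPKM as the lowest, median and highest LNA values and 25.2, 406, 32.4 and 48.2 FPKM in HDL 3, 4, 11 and 23. It differed by 1.63 ± 0.90, and by 2.62 without HDL 4. The other 3 HDL libraries were thus low and HDL 4 was among the highest of all, and saline held 2 libraries of each kind, at 288, 272, 33.5 and 33.1 FPKM. Fibroblast and adventitia genes had a median of 1.14 with 16 of 18 higher, 1.86 without HDL 4 and 0.69 without HDL 11.

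Mitochondrial genes showed the same dependence on HDL 4. All 17 tested subunits of oxidative phosphorylation were higher with LNA and none reached an unadjusted p under 0.05, with a median of 0.94. Without HDL 4 the median was 1.66 and all 17 reached it, beside 9.69% of all genes in that fit that were higher. HDL 4 was the highest HDL library for these genes and for fat-cell genes, so leaving it out raised both medians by construction. Cox5a, a subunit of cytochrome c oxidase, had 7.88, 28.1 and 51.9 FPKM with LNA and 7.13, 42.3, 9.94 and 7.62 FPKM with HDL, a difference of 1.03 ± 0.55 and 1.68 without HDL 4. Genes of fatty acid oxidation and PPAR signalling had a median of 1.09, with 15 of 16 higher, and 2.01 without HDL 4. Cpt2, which brings fatty acids into mitochondrial oxidation, differed by 1.29 ± 0.82 and by 2.12 without HDL 4. Adipoq, the marker of fat cells, moved beside these lists (3.49, 174 and 373 FPKM with LNA, against 6.68, 266, 26.5 and 30.2 FPKM with HDL), and the part of adipose tissue in them was not tested.

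Endothelial genes were lower in 18 of 20 with a median of -0.34, none at an unadjusted p under 0.05. The list mean covered 8.42, 10.5 and 11.6 with LNA and 8.34 to 12.0 with HDL. The median was -1.24 without HDL 4, -0.67 without HDL 11, 0.18 without HDL 3 and 0.18 without HDL 23, so its sign depended on single HDL libraries. Kdr, the main VEGF receptor, was one of the 2 members that were higher, by 0.72 ± 0.47 and by 1.29 without HDL 4. B and plasma cell genes were lower in 14 of 14 with a median of -0.56, but higher by a median of 0.61 without HDL 11. The median of T and NK cell genes was -0.24, 0.31 without HDL 11 and -0.84 without HDL 4. Cxcr2, a neutrophil chemokine receptor, was lower by 0.90, by 0.52 without HDL 11, and reached 3.06 FPKM in HDL 11 and 0.953 FPKM in the highest LNA library.

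Macrophage genes were higher in 17 of 18, with a median of 0.49 and 1 member at an unadjusted p under 0.05. The median was 0.20 without HDL 11, and -0.47 for LNA minus saline. The member was Adgre1, which encodes the F4/80 antigen, with 5.31, 14.1 and 32.1 FPKM as the lowest, median and highest LNA values and 11.7, 9.72, 5.96 and 8.39 FPKM with HDL, a difference of 0.75 ± 0.34. By inhibitor the list medians were -0.06 (LNA92a), 0.37 (LNA489) and 1.08 (dual), and the difference between them was not tested. Lysosome genes had a median of 0.47 (0.23 without HDL 11), or -0.18, 0.46 and 1.02 in the same groups, with Lamp2, a lysosomal membrane protein, at 0.56 ± 0.27 and 0.22 without HDL 11. Complement genes had a median of 0.55 (0.30 without HDL 11, 0.73 without HDL 4) with 15 of 17 higher. By inhibitor their median was 0.57 (LNA92a), 0.56 (LNA489) and 0.74 (dual). The largest difference was that of Cfd, a member of the fat-cell list as well, at 1.62. The macrophage-derived C1qa was at 0.51 ± 0.32 and 0.20 without HDL 11. Erythroid and platelet genes were higher in 11 of 11 with a median of 0.85, which was 0.54 without HDL 4 and 0.51 without HDL 11. The platelet chemokine Pf4 was at 1.26 ± 0.61 and at 1.90 without HDL 4. The smooth muscle list had a median of 0.16 (0.33 without HDL 4, -0.03 without HDL 11). Of its 17 tested members, 2 were higher at an unadjusted p under 0.05, beside 1.56% of all genes. The 2 members were Pln (phospholamban) at 1.33 ± 0.54 and Casq2 (calsequestrin) at 1.15 ± 0.54, calcium-handling genes that heart muscle uses as well.

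**Figure D3:**
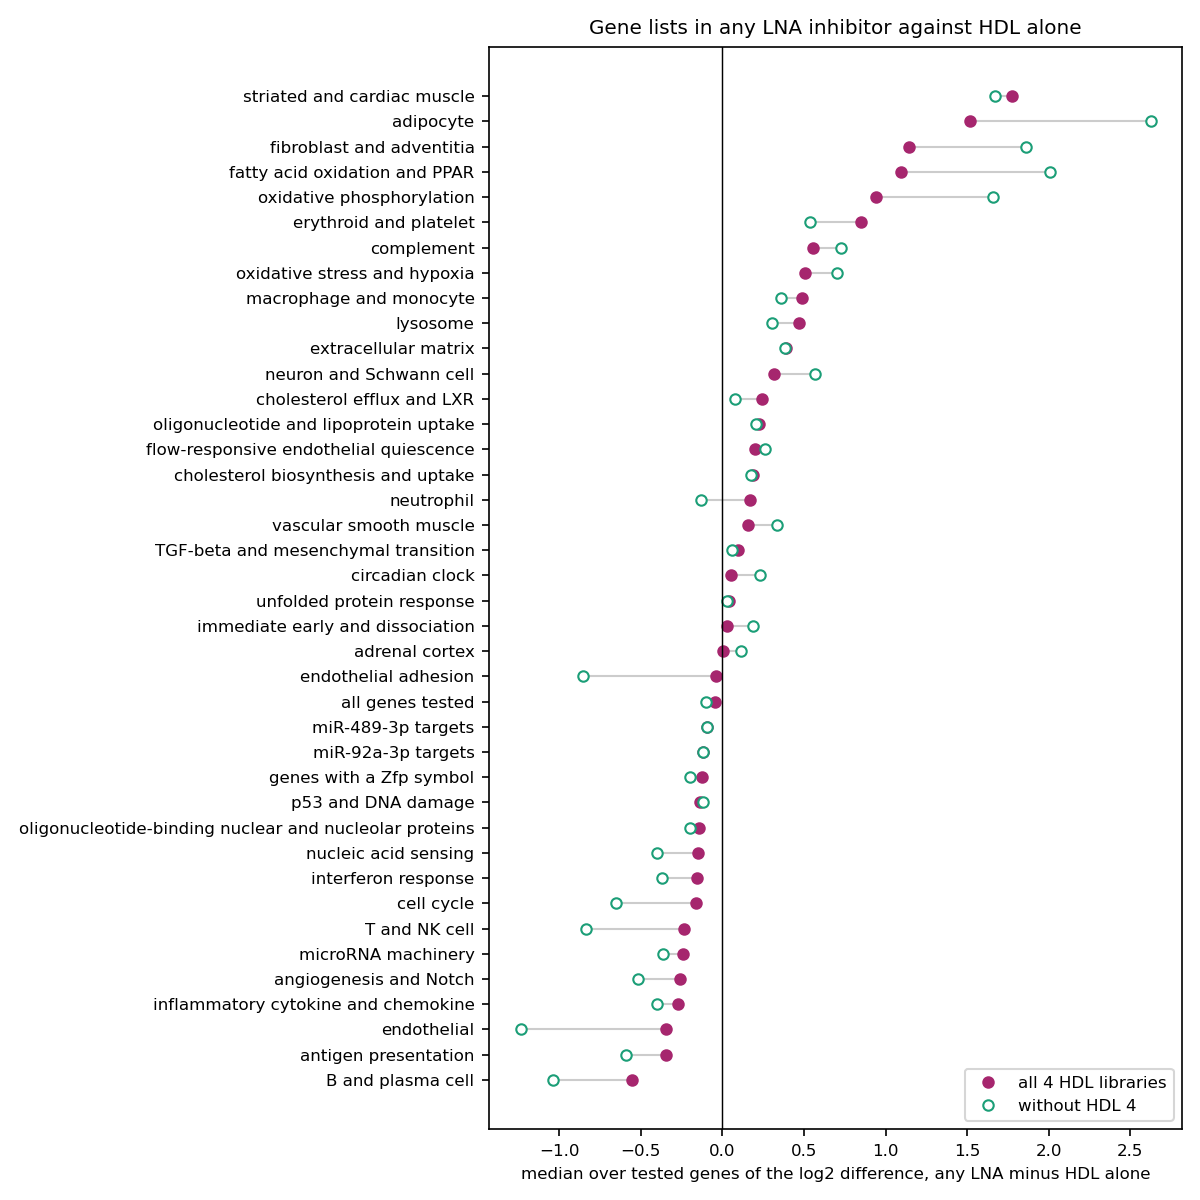
Median log2 difference (x axis, any LNA minus HDL alone) over the tested genes of each list (y axis), with all 4 HDL libraries (filled) and without HDL 4 (open). Leaving out HDL 4 moved the adipocyte list to 2.63 and the endothelial list to -1.24, while striated and cardiac muscle moved only to 1.67.

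**Figure D4:**
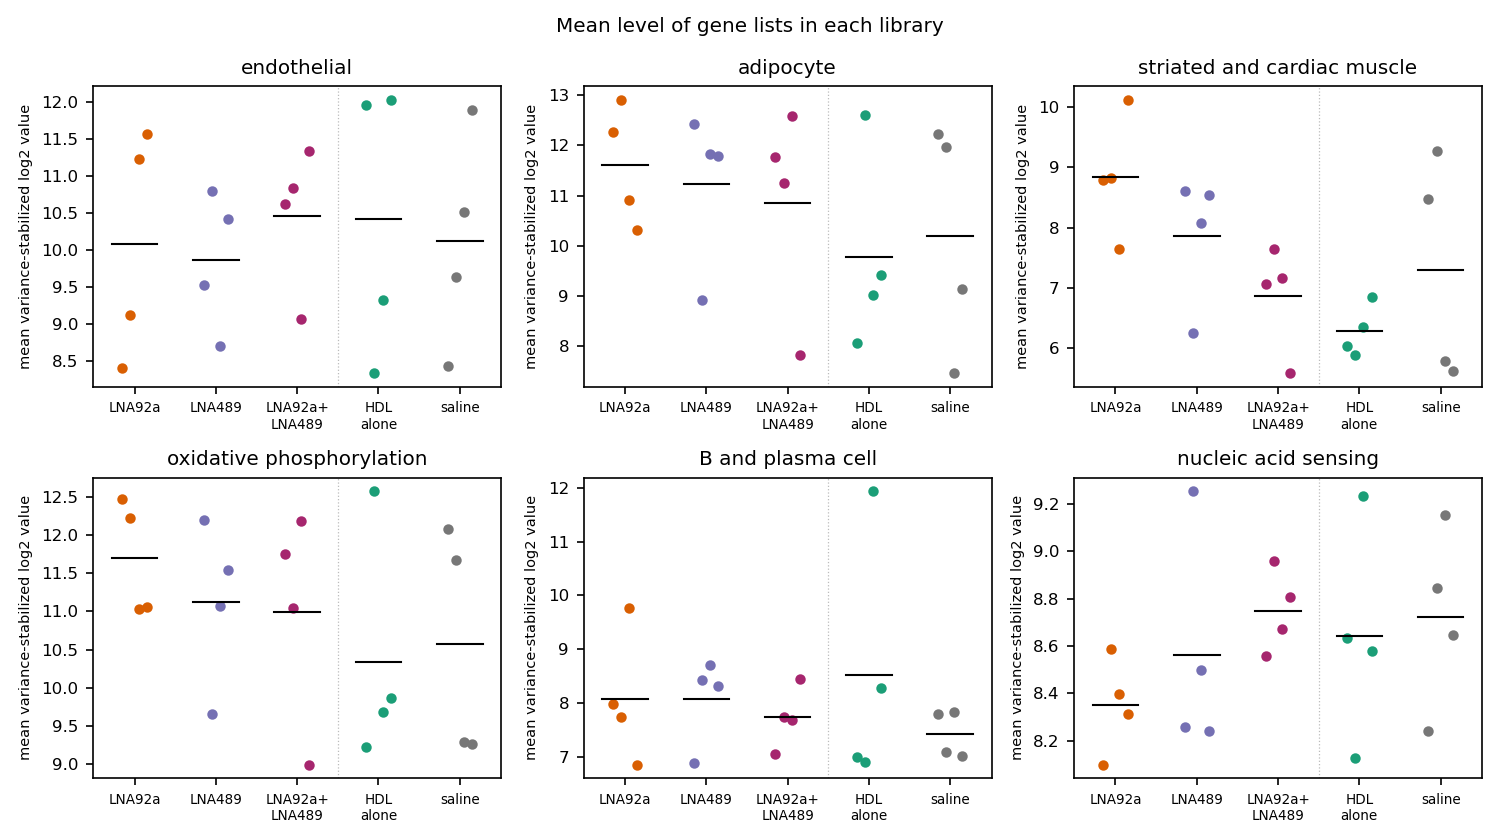
Mean variance-stabilized log2 value (y axis) of 6 gene lists in each library by group, with points for libraries and black bars for group means. HDL 4 is the single high HDL point in the adipocyte and oxidative phosphorylation panels, and HDL 11 the single high HDL point in the B and plasma cell panel, while the 4 HDL points for muscle lie between 5.88 and 6.86.

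Sensors of foreign nucleic acid were mixed in sign. Of 19 genes, 6 were higher and 13 lower, with a median of -0.15 and none at an unadjusted p under 0.05. The median was 0.11 without HDL 11, and -0.40 without HDL 4 with 3 genes lower at an unadjusted p under 0.05, beside 9.53% of all genes that were lower in that fit. Tlr9, the endosomal receptor for unmethylated CpG DNA, had 1.04, 2.95 and 9.64 FPKM as the lowest, median and highest LNA values and 1.82, 2.58, 23.5 and 3.49 FPKM in HDL 3, 4, 11 and 23, with the B cell-rich HDL 11 far above the rest. Its difference was -0.36 ± 0.43, and 0.30 without HDL 11. Tlr7, the receptor for single-stranded RNA, differed by 0.01 ± 0.30 (95% interval -0.61 to 0.63), or -0.58 (LNA92a), 0.12 (LNA489) and 0.50 (dual). Tlr8 was at 0.67 ± 0.45 (0.21 without HDL 11) and Mavs, the adaptor of cytosolic RNA sensors, at 0.25 ± 0.22 (0.46 without HDL 4). Tmem173, which encodes the DNA-sensing adaptor STING, was at -0.75 ± 0.44 and at -1.16 without HDL 4. HDL 4 was its lowest HDL library at 4.75 FPKM, and HDL 11 its highest at 29.4 FPKM.

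Interferon-stimulated genes were mixed as well, none at an unadjusted p under 0.05, with 8 of 22 higher, 14 lower and a median of -0.16. That median was 0.13 without HDL 11 and -0.37 without HDL 4. In the fit without HDL 4, 2 genes were lower at an unadjusted p under 0.05, beside 9.53% of all genes. The medians by inhibitor were -0.20 (LNA92a), -0.14 (LNA489) and -0.15 (dual). Mx1, an antiviral GTPase, had 0.378, 1.39 and 2.50 FPKM with LNA and 2.42, 1.12, 10.7 and 0.879 FPKM with HDL, a difference of -0.66 ± 0.39 and -0.10 without HDL 11. Ifit1, an antiviral RNA-binding protein, was at 0.14 ± 0.31 and its interval of -0.52 to 0.80 holds changes of either sign. Irf9, the DNA-binding part of the interferon-activated complex, was at -0.35 ± 0.22, Irf7 at -0.19 ± 0.32 and the chemokine Cxcl10 at -0.70 ± 0.44. Without HDL 11 they were at -0.04, 0.22 and -0.35, and Irf7 and Cxcl10 too are uncertain by overlap with other genes. Collection came 1 week after injection, and no earlier time was measured in these libraries.

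**Figure D5:**
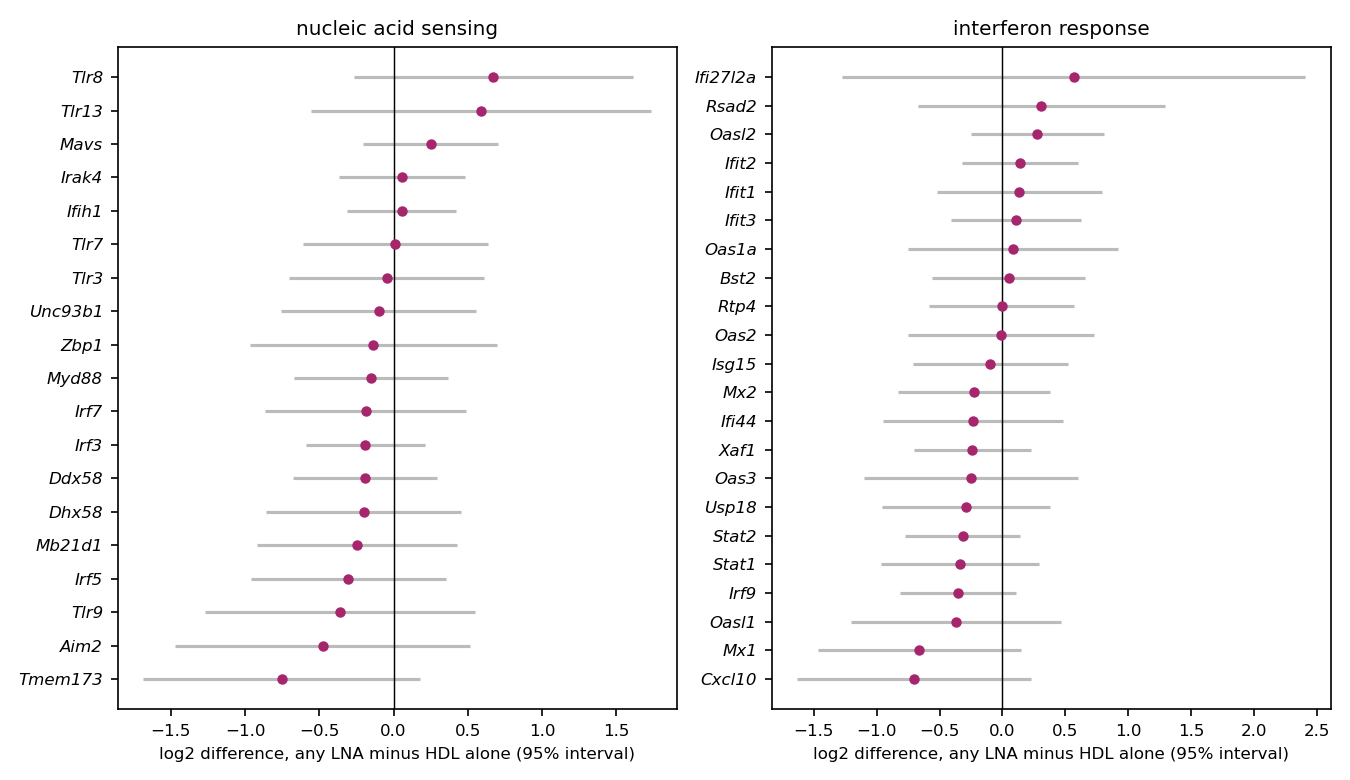
Log2 difference of any LNA inhibitor minus HDL alone (x axis) with its 95% interval for 19 nucleic acid sensing genes (left) and 22 interferon response genes (right), 1 gene per line. Every interval includes 0.

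Inflammatory cytokines and chemokines were lower in 12 of 16 with a median of -0.27 (-0.40 without HDL 4, -0.17 without HDL 11) and 1 member at an unadjusted p under 0.05. Nfkbiz, a nuclear NF-kappa-B regulator, had 7.17, 10.5 and 14.8 FPKM as the lowest, median and highest LNA values and 15.4, 12.8, 14.8 and 17.9 FPKM with HDL. It differed by -0.43 ± 0.16, with -0.51, -0.41 and -0.39 in LNA92a, LNA489 and the dual group. Of the 12 LNA libraries, 9 lay below the lowest HDL library on the variance-stabilized scale. Tnf was at -0.78 ± 0.44, and its highest HDL value, 9.77 FPKM, was that of HDL 11, without which the difference was -0.32. Antigen presentation genes were lower in 14 of 15 with a median of -0.35, 0.04 without HDL 11 and -0.59 without HDL 4. H2-K1, a class I antigen-presenting molecule and the 1 member at an unadjusted p under 0.05, had 104, 167 and 235 FPKM with LNA and 252, 127, 487 and 276 FPKM with HDL, a difference of -0.50 ± 0.24 and -0.27 without HDL 11. HDL 11 was its highest library and HDL 4 lay inside the LNA range in FPKM. On the variance-stabilized scale, HDL 3 and HDL 23 lay inside that range too.

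Receptors that take up oligonucleotides and lipoproteins had a median of 0.22 (0.14 without HDL 11), with 11 of 16 higher. Cd36, the fatty acid and scavenger receptor, had 54.9, 173 and 319 FPKM with LNA and 101, 219, 26.5 and 56.3 FPKM with HDL, a difference of 1.31 ± 0.49 and 0.74 without HDL 11. It was 1.05, 1.43 and 1.44 in LNA92a, LNA489 and the dual group, and fat cells and macrophages express it too. Lrp1, a large endocytic receptor, was at 0.90 ± 0.41 and 0.39 without HDL 11, and Colec12, a scavenger receptor of the vessel wall, at 0.48 ± 0.25 and 0.14 without HDL 11. Stab1 and Stab2, the stabilins known in mouse liver for clearing antisense oligonucleotides, were at -0.36 ± 0.59 and 0.14 ± 0.71, both overlapping other genes. Without HDL 11 they were at -0.85 and 0.64. Scarb1, the HDL receptor, had 1.43, 3.08 and 24.3 FPKM with LNA and 2.84, 2.65, 2.66 and 2.80 FPKM with HDL, at 0.43 ± 0.52. Its highest library of the 16, dual 10, also had adrenal cortex genes at a list mean of 12.3 against a median of 5.55 over the LNA libraries, and the adrenal cortex uses this receptor heavily. The part of adrenal tissue in that value was not tested.

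No gene of the lists tied to oligonucleotide toxicity reached an unadjusted p under 0.05. The p53 and DNA damage list had 7 of 18 higher and a median of -0.14 (-0.01 without HDL 11). Cdkn1a, the p53-induced cell cycle inhibitor p21, had 11.6, 15.8 and 28.2 FPKM with LNA and 9.54, 36.7, 9.30 and 9.06 FPKM in HDL 3, 4, 11 and 23. Its difference of 0.44 ± 0.40 was 1.00 without HDL 4, the one high HDL library. Ccng1, a p53 target, was at 0.71 ± 0.35 (1.10 without HDL 4) and Bbc3, the cell death gene Puma, at -0.45 ± 0.22. Of 15 genes for nuclear and nucleolar proteins that bind oligonucleotides, 14 were lower, with a median of -0.15 (-0.01 without HDL 11). Rnaseh1, the enzyme that cuts RNA paired with DNA, was at -0.15 ± 0.20 and Nop56, a nucleolar protein of ribosomal RNA modification, at -0.41 ± 0.20 and -0.07 without HDL 11.

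Genes of the microRNA machinery were lower in 13 of 16, with a median of -0.24. Of them, 2 were lower at an unadjusted p under 0.05, beside 2.69% of all genes. Dicer1, the nuclease that frees mature microRNAs, had 5.62, 7.20 and 12.8 FPKM as the lowest, median and highest LNA values and 12.1, 6.97, 16.3 and 11.5 FPKM with HDL, a difference of -0.39 ± 0.17. Tnrc6a, the scaffold that links Argonaute to deadenylation, had 4.98, 7.52 and 11.9 FPKM with LNA and 12.8, 6.23, 17.2 and 12.5 FPKM with HDL, a difference of -0.41 ± 0.18. By inhibitor the differences were -0.34, -0.37 and -0.45 for Dicer1 and -0.41, -0.39 and -0.44 for Tnrc6a in LNA92a, LNA489 and the dual group. In FPKM, HDL 3, HDL 4 and HDL 23 lay inside the LNA range of Dicer1, and HDL 4 alone inside that of Tnrc6a. Cnot1, the scaffold of the main deadenylase, was at -0.33 ± 0.16 and at -0.10 without HDL 11. Without HDL 4 the list median was -0.36 and 6 of the 16 genes were lower at an unadjusted p under 0.05, beside 9.53% of all genes in that fit, and without HDL 11 it was -0.09.

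Targets of the inhibited microRNAs are set beside the median of all genes, -0.05. Reported miR-92a-3p targets had a median of -0.12, with 8 of 20 higher and none at an unadjusted p under 0.05, and 13 of the 20 held the seed match in the 3′ UTR. Klf2, whose match is printed above, had 31.0, 52.3 and 177 FPKM with LNA and 101, 39.6, 95.2 and 133 FPKM with HDL, at -0.36 ± 0.37 and -0.61 without HDL 4. By inhibitor Klf2 stood at -0.21 (LNA92a), -0.61 (LNA489) and -0.25 (dual). Klf4 was at 0.22 ± 0.44, with 0.55, -0.08 and 0.17 by group, and -0.26 without HDL 11. Itga5 had 3.57, 25.9 and 69.2 FPKM with LNA and 91.1, 3.64, 12.0 and 89.7 FPKM with HDL, low in HDL 4 as Pecam1 is, at -0.15 ± 0.76 and -0.93 without HDL 4. Btg1, an antiproliferative gene, was at -0.57 ± 0.28 (-0.24 without HDL 11) and Zeb2, a repressor of epithelial genes, at 0.46 ± 0.29 (0.30 without HDL 11).

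Of 13 tested genes reported as miR-489-3p targets, 4 were higher, the median was -0.09, and 3 of the 14 listed genes held the seed match. Dek, with a match printed above as well, was at -0.03 ± 0.16. Tgfb2, the ligand of endothelial-to-mesenchymal transition, was the 1 member at an unadjusted p under 0.05. It had 1.68, 2.19 and 9.39 FPKM as the lowest, median and highest LNA values and 1.80, 2.24, 0.770 and 1.82 FPKM with HDL, a difference of 0.73 ± 0.32. By inhibitor it came to 0.71 (LNA92a), 0.97 (LNA489) and 0.51 (dual), and to 0.43 without HDL 11. Tgfb2 is uncertain because it overlaps other genes.

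Seed matches were also counted across all 3′ UTRs. GTGCAAT, the complement of the miR-92a seed, and GTGTCAT, that of the miR-489 seed, were searched on the transcript strand of 1 UTR per gene among 12947 tested genes. A match to miR-92a alone was held by 718 genes (5.55%), to miR-489 alone by 1004 (7.75%), to both by 156 (1.20%) and to neither by the other 11069. The median differences of these 4 classes were -0.02, -0.01, -0.06 and -0.02, and no gene of any class was called. In LNA92a the miR-92a class was at -0.04 and genes with no match at -0.02. In LNA489 the miR-489 class was at 0.01 and genes with no match at -0.02. In the dual group the class with both matches was at -0.06 and genes with no match at -0.01. Mir17hg, the host transcript of Mir92-1, had 0.259, 1.33 and 3.25 FPKM with LNA and 2.63, 0.693, 5.41 and 2.14 FPKM with HDL, at -0.51 ± 0.38, -0.82 without HDL 4 and -0.21 without HDL 11. Calcr, the host gene of Mir489, had at most 0.110 FPKM with LNA and 0.052 with HDL and was not tested. These are host transcripts, and mature microRNAs were not measured in these libraries.

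Genes of endothelial function were mixed in sign. The flow-responsive list had a median of 0.20 (-0.05 without HDL 11). Of its 15 genes, 2 were higher at an unadjusted p under 0.05, beside 1.56% of all genes. Pgf, placental growth factor, had 0.261, 0.797 and 3.68 FPKM with LNA and 0.409, 0.238, 0.085 and 0.193 FPKM with HDL, a difference of 0.82 ± 0.31, with 11 of 12 LNA libraries above the highest HDL library on the variance-stabilized scale. It was 0.97, 0.88 and 0.61 in LNA92a, LNA489 and the dual group. Plpp3, a phosphatase of lysophospholipids induced by laminar flow, was at 0.87 ± 0.36 and at 0.38 without HDL 11. The endothelial adhesion list had a median of -0.04, -0.85 without HDL 4 and -0.38 without HDL 11. Slc2a1, the glucose transporter GLUT1, was lower by 0.62, with 1.54, 3.99 and 7.59 FPKM with LNA and 8.31, 3.32, 8.42 and 7.50 FPKM with HDL. Lpl, lipoprotein lipase, was higher by 1.25 ± 0.55, at 47.8, 145 and 238 FPKM with LNA and 67.8, 239, 18.8 and 41.8 FPKM with HDL. It was 2.02 without the fat-rich HDL 4 and 0.63 without HDL 11, the lowest library.

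Other lists lay between the muscle and B cell lists. The medians were 0.51 for oxidative stress and hypoxia, 0.39 for extracellular matrix, 0.31 for neuron and Schwann cell, 0.24 for cholesterol efflux and 0.19 for cholesterol synthesis and uptake. They were 0.17 for neutrophil genes, 0.10 for TGF-beta and mesenchymal transition, 0.05 for the circadian clock, 0.04 for the unfolded protein response, 0.03 for immediate early genes and 0.01 for the adrenal cortex. Cell cycle genes were at -0.16 and angiogenesis and Notch genes at -0.26. Several of these medians turned on HDL 11. Without it, extracellular matrix was at -0.02, neuron and Schwann cell at -0.06, TGF-beta at -0.16, the circadian clock at -0.13, immediate early genes at -0.26 and cell cycle at 0.33. Also without it, angiogenesis was at -0.60, cholesterol efflux at 0.11, the unfolded protein response at 0.11, the adrenal cortex at -0.18 and neutrophil genes at 0.02. Without HDL 4, cell cycle was at -0.65, angiogenesis at -0.52, cholesterol efflux at 0.08, neuron and Schwann cell at 0.57 and neutrophil genes at -0.13. Pmp22, a myelin protein also made by fibroblasts, was the Schwann cell member at an unadjusted p under 0.05, at 1.05 ± 0.39, 1.61 without HDL 4 and 0.60 without HDL 11.

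A test of differences among the 3 LNA groups asked whether pooling them was even. An F-test in the same limma fit called 0 genes at a smallest adjusted p of 1.00, with 282 genes at an unadjusted p under 0.05 (1.67%). With voom it called 0 genes and 215 reached an unadjusted p under 0.05, and with library weights 0 and 735. Without LNA489 13 the unadjusted count was 625. Of the 5 genes with the smallest p, 4 had their highest mean in LNA92a. Rn7s6, a non-coding RNA, averaged 72.3 ± 12.6 FPKM with LNA92a, 42.4 ± 22.8 with LNA489 and 39.5 ± 3.89 with both (SD, n = 4), against 46.7, 35.0, 45.1 and 32.8 FPKM with HDL. Snord13, a guide RNA of ribosomal RNA acetylation, had 96.0, 2.71, 40.5 and 103 FPKM in LNA92a and 16.6, 10.1 and 29.7 FPKM in LNA489 7, 14 and 19, against 30.4, 3.63, 25.3 and 12.5 FPKM with HDL. In LNA489 13 and in 3 of the 4 dual libraries it was listed at 0, and dual 21 had 5.35 FPKM. LNA92a also held the 3 libraries richest in ribosomal RNA, and the part of this in the small RNA genes was not tested. Fhl2, a muscle LIM protein, was higher than HDL by 1.95 (LNA92a), 0.45 (LNA489) and 0.20 (dual). Rrad, a muscle GTPase, was at 0.61, -0.47 and -0.59, and Slc16a4, a monocarboxylate transporter, at 0.15, 0.71 and -0.20. Rn7s6, Rrad and Fhl2 overlap other genes and are uncertain.

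Single inhibitors at 20 mg/kg and the dual group at 40 mg/kg differ in dose and in target at once. Their values are set side by side and not compared as doses. LNA92a against HDL called 0 genes in limma with 595 at an unadjusted p under 0.05, LNA489 called 0 with 638, and the dual group called 0 with 416. These 3 comparisons share the 4 HDL libraries. Pooled without the dual group, the single inhibitors called 0 genes with 739 at an unadjusted p under 0.05. The 12 LNA libraries against saline called 0 genes in limma with 446 at an unadjusted p under 0.05, the smallest adjusted p being 0.936. Against saline, the list medians were 0.62 for striated and cardiac muscle, 1.08 for fat cells, 0.64 for oxidative phosphorylation, -0.02 for interferon response and -0.02 for endothelium. For macrophage, lysosome, and B and plasma cell genes they were -0.47, -0.46 and 0.59, opposite in sign to the differences from HDL. For B and plasma cell genes this rested on HDL 11, without which the median difference from HDL was 0.61.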

How the data were processed

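Per the file headers and the labels, the authors deposited variance-stabilized log2 values of gene counts (20442 genes) and FPKM for 32081 genes, 1 column per library. The submitters' processing notes name DESeq2 1.18.1, STAR 2.5.3a, featureCounts 1.15.29, cutadapt 1.16 and FastQC with GRCm38.p5, without roles. The sources used here give neither the strand of counting nor the annotation release, so genes overlapped by another gene are reported as uncertain. Whole reads were recovered from FPKM and gene length (100% of values within 0.1 of a whole number, in genes of up to 3000 bases and 1000 reads), and gave the depth.

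Group means were fitted with limma 3.58.1 (R 4.3.3) on the deposited log2 values of all 20 libraries, so that 5 groups shared 15 residual degrees of freedom, with a mean-variance trend. Any LNA was the mean of the 3 LNA group means. Genes with a mean FPKM of at least 0.5 were tested, 2-sided, at a Benjamini-Hochberg adjusted p under 0.05. The script was checked on simulated data. Named genes were up to 12 per direction with the smallest p (mean FPKM at least 1), up to 6 per direction without overlap, 5 for the F-test, up to 3 per list and a few fixed genes. The members, the 38 lists (590 of 593 genes found) and the rules were chosen with earlier results of these data known. Coordinates and 3′ UTRs are from GENCODE on GRCm38, positions counted from 1. Figures were drawn with matplotlib 3.10.9. Alternatives were other scales, filters, weights, voom, subsets of libraries and leaving out each library.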

Additional observations from a re-analysis of the deposited data

Results flagged for a closer look

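A library was marked where its distance to the nearest of the other 3 in its group took up more of the group's range than Dixon's 95% limit for 4 samples. This was examined in 260 groups of values, and chance marks about 1 in 20. It marked 18.

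Values of single genes are on the variance-stabilized log2 scale. Library dual 10 was the highest of its group for Pcp4l1 (7.08) and the lowest for Ccdc32 (7.56). LNA489 13 was the lowest of its group for Actn2 (5.95) and Klf4 (8.92) and the highest for Akirin1-ps (4.64). Library dual 21 was the lowest for Actn2 (5.90) and the highest for Snord13 (5.07), where the other 3 libraries are listed at 0. Eef1a2 was high in LNA489 14 (9.90), Rflnb low in LNA92a 5 (7.88), Rnaseh1 high in LNA92a 5 (7.54) and Tlr9 low in dual 8 (7.07). In the HDL group, Tlr7 was high in HDL 11 (9.56) and Cdkn1a in HDL 4 (10.5).

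Among list means, LNA489 13 had the lowest fibroblast mean (9.87) and the highest macrophage mean (11.6) of its group. Library dual 10 had the highest macrophage mean (11.2) and the highest adrenal cortex mean (12.3). LNA92a 12 had the most assigned reads of its group, 17.8 M.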

How the results depend on the processing

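No alternative called a gene, in the pooled comparison or among the LNA groups. With limma, the 716 genes at an unadjusted p under 0.05 (263 higher, 453 lower) became 4753 (2287 and 2466) with library weights and 1972 (950 and 1022) without HDL 4 and HDL 11 together, an alternative added after seeing the data. Higher genes were 159 on log2(FPKM + 0.1) and 124 on log2(FPKM + 1), and the lower genes there 515 and 635. Median-centring gave 192 higher and 690 lower. Leaving out 1 library gave 368 to 3238 genes, 145 to 1632 higher and 220 to 1606 lower. Among the LNA groups, 282 genes became 735 with library weights, 966 on log2(FPKM + 0.1), 840 on log2(FPKM + 1), 441 with no filter and 148 at a mean FPKM of at least 2, and 225 to 625 with 1 library left out. Genes with no overlap, 3 higher and 13 lower, became 12 and 36 in single inhibitors only, 358 and 931 without HDL 4 and HDL 11, and 3 to 135 and 13 to 216 with 1 library left out. The lower ones were 6 on both FPKM scales. The cause of these shifts was not tested, beyond fewer libraries or genes by construction.

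Of 155 named genes, 29 changed sign in some alternative, and of 38 list medians 23 did, 14 of them without HDL 11. No paired analysis was possible because no animal number occurs in more than 1 group. With 4 HDL mice, a typical gene needed a log2 difference of 0.61 for an unadjusted p of 0.05, and a larger one to be called.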

Other observations

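The 13 genes with no overlap on the lower side include 7 outside the naming rule, named here after their values were seen and none called in limma. These were Nprl3, a subunit of the GATOR1 complex, at -0.43 ± 0.15, Psmc3ip, a recombination factor, at -0.74 ± 0.35, Ripk2, a kinase of innate immune signalling, at -0.39 ± 0.18 and Usp6nl at -0.54 ± 0.19. The others were Nol10, a nucleolar protein, at -0.47 ± 0.17, Zfp1 at -0.49 ± 0.19 and the predicted gene Gm44623 at -0.86 ± 0.22.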
